A study of Caenorhabditis elegans with 24 samples.

Results

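The genes described here are 8 PUF and GLD genes of Caenorhabditis elegans, fbf-1, fbf-2, puf-3, puf-5, puf-8, gld-1, gld-2 and gld-3, which encode regulators of mRNA translation in the germline. They were chosen by name, not by any measured value, though earlier results of these data were known. Of the 8, 6 had a probe among the 15208 gene probes used here, namely fbf-2 (WBGene00001402), puf-5 (WBGene00004241), puf-8 (WBGene00004244), gld-1 (WBGene00001595), gld-2 (WBGene00001596) and gld-3 (WBGene00001597). fbf-1 (WBGene00001401) and puf-3 (WBGene00004239) were not analysed here.

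Messenger RNA was measured in 24 samples of 50 4-cell embryos each, on 1 array per sample. There were 8 groups of 3 samples. N2 is the standard wild-type laboratory strain, and HC445 is labelled as carrying sid-1(qt9), with a loss of haf-6 suspected. sid-1 encodes a channel for double-stranded RNA, and haf-6 an ABC transporter linked to RNA interference. In generation 2 of each strain, the grandparents had lived at 20 °C and the mothers at 20 °C or at 25 °C. In generation 3, all mothers had lived at 20 °C, and it was the grandparents that differed, with 20 °C or 25 °C. All worms were fed a sporulation-defective Bacillus subtilis in place of Escherichia coli, and all cultures had been kept at 20 °C for several generations beforehand. Young adults were chopped and bleached, embryos were collected by hand, and their RNA was amplified from an oligo-dT primer in rounds of in vitro transcription. The samples of a group were collected separately, but separate cultures are not stated, so p-values rest on a spread between samples that may be partly technical.

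PUF proteins bind short elements in the 3′ untranslated regions of mRNAs and usually repress or destabilise them. FBF-1 and FBF-2 are close relatives that keep germline stem cells from entering meiosis. PUF-8 acts beside them in the mitotic germline, and PUF-3 and PUF-5 act in late oogenesis and in what the oocyte passes to the embryo. GLD-1 is an RNA-binding protein of the STAR family that holds meiotic and oocyte mRNAs silent, and in the early embryo it represses glp-1 in the posterior. GLD-2 is a cytoplasmic poly(A) polymerase that activates mRNAs by lengthening their tails, and GLD-3, of the Bicaudal-C family, is its partner and also binds FBF. The arrays read the mRNAs of these regulators after amplification from an oligo-dT primer, and say nothing of their proteins or of translation. Whether the length of the poly(A) tails affected the signal was not tested. In whole embryos, fewer cells holding an mRNA and less of it per cell cannot be told apart.

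All values below are normalised log2 signals, that is log2 of the scanner's processed spot intensity minus log2 of the 75th percentile of the same array. A negative value means a signal below that percentile. Probes hybridise with different strength, so levels are compared between arrays for 1 probe and never between genes. The 6 probes were well above background on all 24 arrays, none was saturated on any array and no spot was marked as an outlier. Between 9109 and 13075 probes were well above background on an array. On 3 arrays of 25 °C groups, all noted, on 1 slide and of replicate 3, 1518, 1976 and 1653 probes shared the lowest signal of the array, against 1 probe on every other array. The arrays lay on 14 slides and were scanned on 3 days, each day with 1 array of every group. The labels note or suspect a 10-fold spike-in concentration on 6 arrays, 5 from 25 °C groups and 1 from a 20 °C group. The mean log2 signal of the 10 spike-in probes lay between 0.09 and 0.78 on these 6 arrays and between -2.09 and -0.58 on the other 18. The precision of every value is limited by 3 arrays per group. The embryo stage was not checked against marker genes, because neither the files nor the reference gene table give names for the other probe IDs.

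The first question was whether embryos carried different amounts of these mRNAs when their mothers had been kept at 25 °C and not at 20 °C. No difference was detected for any of the 6 genes. In the comparison of mothers at 25 °C with mothers at 20 °C over both strains, 0 of 6 passed the threshold of 0.05 (limma, Benjamini-Hochberg adjusted over all probes), and 0 of 6 had an unadjusted p under 0.05. In the same comparison 14% of the 11637 tested probes passed. This fit held no term for scan day. With scan day as a block the SE was smaller for each of the 6 genes, for gld-2 0.39 in place of 0.55. Again 0 of 6 passed, where 22.9% of all probes passed, and gld-1 alone had an unadjusted p under 0.05 (limma). The median absolute log2 difference was 0.16 over the 6 genes and 0.26 over all tested probes, and the medians of the signed differences were -0.04 and -0.07. The plot of signal by group shows every array.

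**Figure D1:**
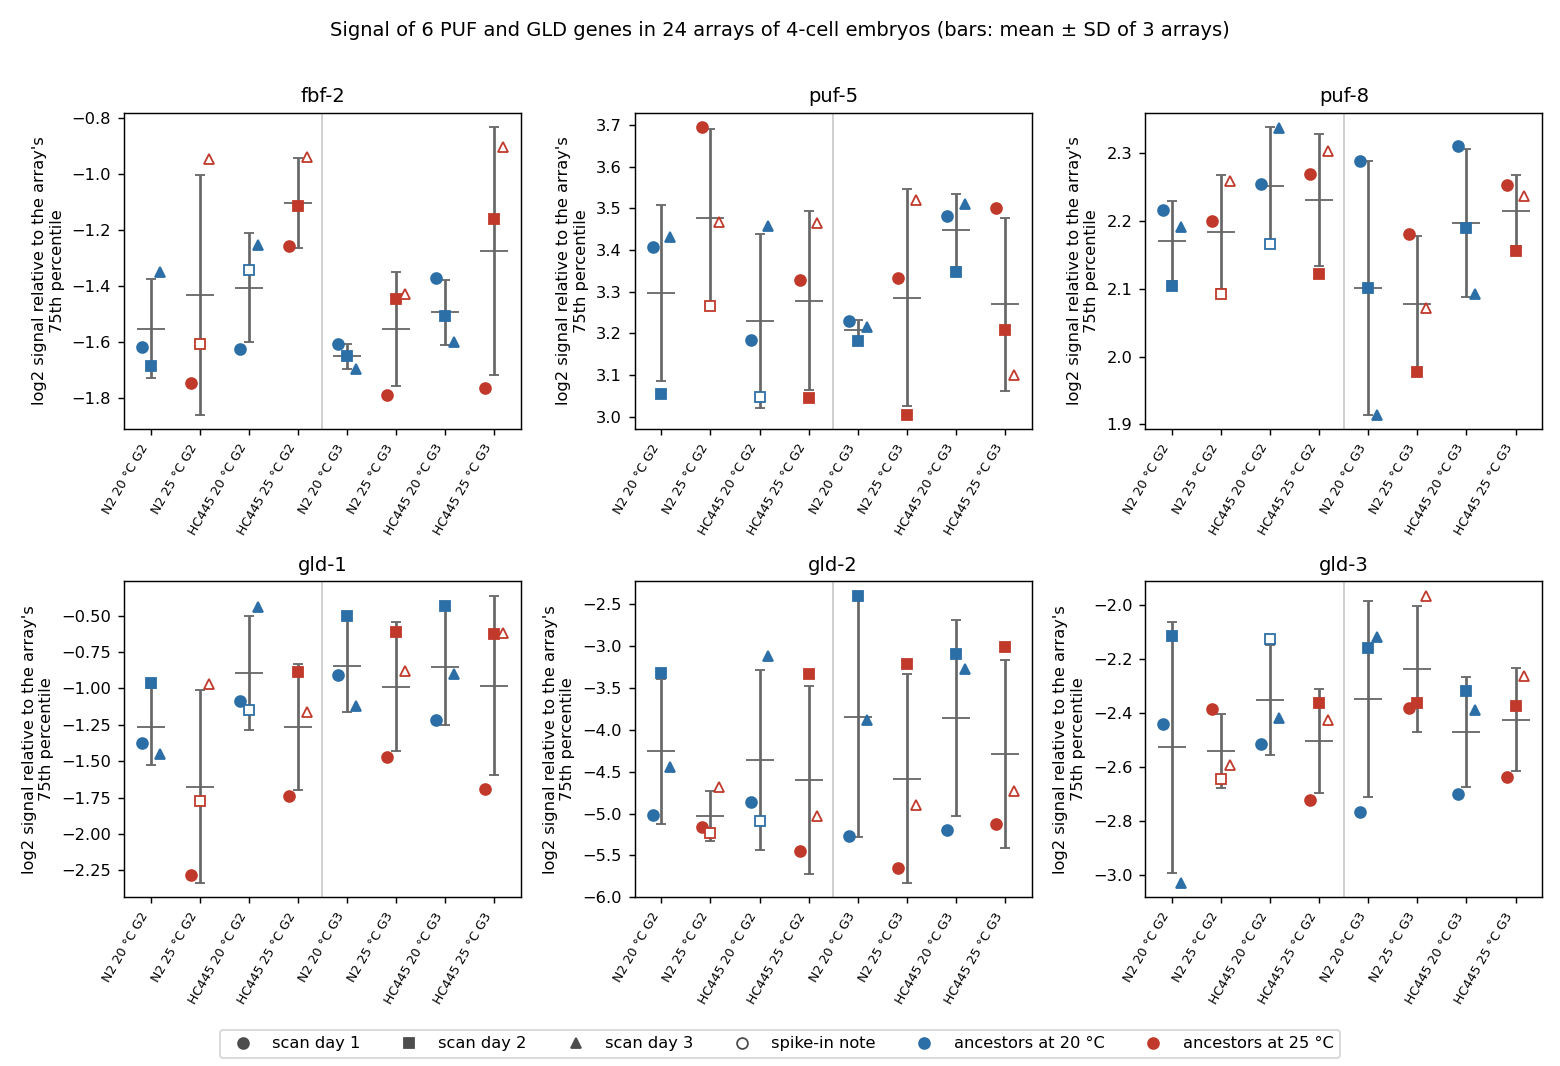
Normalised log2 signal (vertical axis, with the array's 75th percentile as 0) of 6 PUF and GLD genes in the 8 groups (horizontal axis; G2 and G3 are generations 2 and 3), with the mean ± SD of 3 arrays. Each panel has its own scale: the range over 24 arrays is 0.42 for puf-8 and 3.25 for gld-2, and the arrays of 25 °C and 20 °C ancestors overlap in every panel.

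The PUF genes came first. The signal of puf-8, whose product restrains germ cell proliferation and dedifferentiation, hardly moved between conditions. After mothers at 25 °C its lowest, median and highest signals over 6 arrays were 2.09, 2.23 and 2.30, and after mothers at 20 °C they were 2.10, 2.20 and 2.34. The arrays of both temperatures covered nearly the same range. The log2 difference was -0.00 ± 0.07 (SE), with a 95% interval from -0.16 to 0.15 and an adjusted p of 0.983 (limma), so that a change of more than 1.12-fold lay outside the interval.

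For puf-5, an oocyte PUF gene, the lowest, median and highest signals were 3.04, 3.40 and 3.69 after mothers at 25 °C and 3.05, 3.29 and 3.46 after mothers at 20 °C. The arrays overlapped, and 1 array of the 25 °C group lay clearly above the rest, that of N2 replicate 2. The log2 difference was 0.11 ± 0.11 (SE), with a 95% interval from -0.11 to 0.34 and an adjusted p of 0.556 (limma). For fbf-2 the corresponding signals were -1.74, -1.19 and -0.94 after mothers at 25 °C and -1.68, -1.48 and -1.25 after mothers at 20 °C. Its log2 difference was 0.21 ± 0.15 (SE), with an interval from -0.10 to 0.52 and an adjusted p of 0.406 (limma). The highest 2 of its 25 °C arrays were both from scan day 3, carried the spike-in note and were among the arrays with many probes at the lowest signal. With terms for scan day and the note the difference was 0.16 ± 0.13 (SE). Without the 6 noted arrays it was 0.03, but N2 after 25 °C mothers then held 1 array, replicate 2, its lowest for fbf-2, and that lone array is assumed to vary like the other groups. FBF-1 and FBF-2 are nearly identical in sequence, and whether the fbf-2 probe also takes up fbf-1 mRNA was not tested, since the probe sequences were not used here.

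Among the GLD genes, gld-1 had the smallest adjusted p of the comparison, and it did not pass. Its lowest, median and highest signals were -2.28, -1.45 and -0.89 after mothers at 25 °C and -1.45, -1.12 and -0.44 after mothers at 20 °C. The 3 lowest arrays were all of 25 °C mothers, and the other arrays were mixed. The log2 difference was -0.39 ± 0.24 (SE), with a 95% interval from -0.89 to 0.10 and an adjusted p of 0.319 (limma). Larger absolute differences were found for 37.3% of all tested probes. With scan day as a block the difference was -0.39 ± 0.18 (SE), with an interval from -0.76 to -0.02, an unadjusted p of 0.0389 and an adjusted p of 0.119 (limma). With that block 22.9% of all probes passed. Leaving out 1 array at a time gave differences between -0.57 and -0.24, none past the threshold.

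The sign of the gld-1 difference was not the same in every pair of arrays. Within strain and scan day, the 25 °C array minus the 20 °C array gave -0.81, -0.91 and 0.48 in N2 for replicates 1, 2 and 3, and 0.26, -0.65 and -0.72 in HC445. Thus 4 of 6 pairs were negative, and replicate 2 alone was negative in both strains. Replicate 2 was also the only replicate with no spike-in note on these arrays. Every pair of replicates 1 and 3 set a noted array against an array without the note. The noted array was that of 20 °C in HC445 of replicate 1 and that of 25 °C in the other such pairs. The means of both strains were -0.28, -0.78 and -0.12. The difference was -0.92 ± 0.26 (SE) when each slide had its own term, with an unadjusted p of 0.00637 and an adjusted p of 0.173 (limma). That fit left 3 residual degrees of freedom, and 0.352% of all probes passed. With slide as a random block the difference was -0.51 ± 0.21 (SE), with an unadjusted p of 0.0245 and an adjusted p of 0.106 (limma), where 16.7% of all probes passed. Without the noted arrays it was -0.78 with an adjusted p of 0.142 (limma), where N2 after 25 °C mothers held only replicate 2, the lowest gld-1 array of all, and the N2 difference alone was -1.02.

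For gld-3, the KH-domain partner of GLD-2, the lowest, median and highest signals were -2.72, -2.51 and -2.36 after mothers at 25 °C and -3.03, -2.43 and -2.11 after mothers at 20 °C. The 25 °C arrays lay inside the range of the 20 °C arrays. The log2 difference was -0.08 ± 0.16 (SE), with an interval from -0.42 to 0.25 and an adjusted p of 0.807 (limma). For gld-2, the poly(A) polymerase, they were -5.44, -5.09 and -3.33 after mothers at 25 °C and -5.09, -4.65 and -3.12 after mothers at 20 °C. Its log2 difference of -0.50 ± 0.55 (SE) had a wide interval, from -1.65 to 0.64, and an adjusted p of 0.624 (limma), and the interval reached a 3.13-fold difference. The values of gld-2 followed the scan day and the spike-in note, as described further on.

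The strains were also tested on their own. In N2 the adjusted p-values of the 6 genes ran from 0.589 to 0.989, and 5.47% of all probes passed. In HC445 they ran from 0.550 to 0.960, and 5.08% of all probes passed (limma). The gld-1 log2 difference was -0.41 ± 0.34 (SE) in N2 and -0.37 ± 0.34 in HC445. The difference between the strains in this effect, HC445 minus N2, was 0.04 for gld-1 with an interval from -0.95 to 1.03. For puf-8 it was -0.03, with an interval from -0.34 to 0.27. Of the 6 genes 0 passed the test of that difference, 0 had an unadjusted p under 0.05, and 0% of all probes passed, with 142 probes at an unadjusted p under 0.05 (limma).

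**Figure D2:**
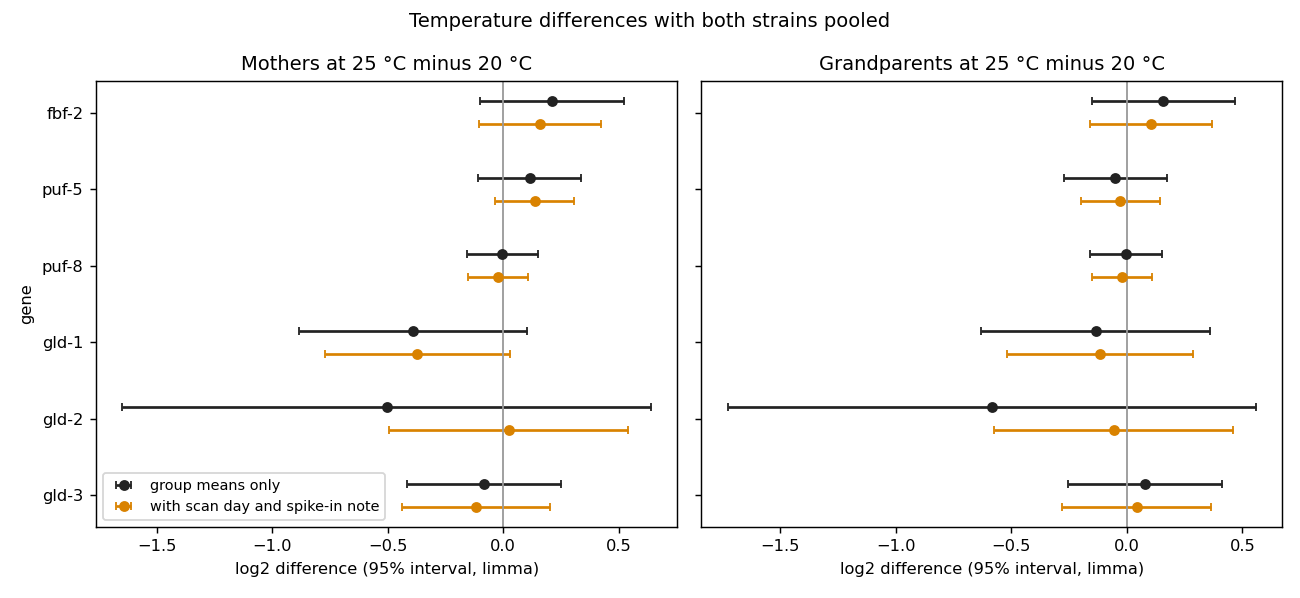
Log2 difference between 25 °C and 20 °C (horizontal axis) with its 95% interval from limma for each gene (vertical axis), for mothers on the left and grandparents on the right, from the fit of group means and from a fit that also holds scan day and the spike-in note. Every interval includes 0, that of puf-8 is the narrowest, and that of gld-2 runs from -1.65 to 0.64 for mothers without these terms and from -0.49 to 0.54 with them.

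The second question was whether the temperature of the grandparents left a difference once the mothers had been returned to 20 °C. No such difference was detected for the 6 genes. With both strains together 0 of 6 passed and 0 of 6 had an unadjusted p under 0.05 (limma), where 0.284% of the tested probes passed. The median absolute log2 difference was 0.11 over the 6 genes and 0.13 over all tested probes, and the medians of the signed differences were -0.03 and -0.01.

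Again puf-8 was the most tightly bounded. After grandparents at 25 °C its lowest, median and highest signals were 1.98, 2.17 and 2.25, and after grandparents at 20 °C they were 1.91, 2.14 and 2.31. The 25 °C arrays lay inside the range of the 20 °C arrays. The log2 difference was -0.00 ± 0.07 (SE), with an interval from -0.16 to 0.15. For puf-5 the corresponding signals were 3.00, 3.27 and 3.52 and 3.18, 3.29 and 3.51, and the log2 difference was -0.05 ± 0.11 (SE) with an interval from -0.27 to 0.17. For fbf-2 they were -1.79, -1.44 and -0.90 and -1.70, -1.60 and -1.37, and the log2 difference was 0.16 ± 0.15 (SE) with an interval from -0.15 to 0.47. The 25 °C arrays of fbf-2 spread more widely than its 20 °C arrays and reached both above and below them. The highest of them, HC445 of replicate 3, carried the spike-in note. The fbf-2 difference was 0.10 ± 0.13 (SE) with terms for scan day and the note, and 0.03 without the noted arrays. When each slide had its own term it was -0.03 ± 0.19 (SE).

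The GLD genes had the same outcome. For gld-1 the lowest, median and highest signals were -1.69, -0.75 and -0.61 after grandparents at 25 °C and -1.22, -0.91 and -0.43 after grandparents at 20 °C. The log2 difference was -0.13 ± 0.24 (SE), with an interval from -0.63 to 0.36. When each slide had its own term it was -0.59 ± 0.21 (SE), with an unadjusted p of 0.0187 and an adjusted p of 0.796 (limma). For gld-3 they were -2.64, -2.37 and -1.96 and -2.77, -2.35 and -2.12, with a log2 difference of 0.08 ± 0.16 (SE) and an interval from -0.26 to 0.41. For gld-2 they were -5.64, -4.81 and -3.01 and -5.27, -3.58 and -2.40. Both gld-2 groups covered about the whole range of the probe, and the log2 difference was -0.58 ± 0.55 (SE) with an interval from -1.73 to 0.56. The adjusted p rounded to 1.00 for each of the 6 genes (limma).

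Each strain alone gave 0 of 6 genes past the threshold and 0 of 6 with an unadjusted p under 0.05 (limma), where 0.112% of the probes passed in N2 and 0.0859% in HC445. The test of the strain difference in this effect gave 0 of 6 genes, none with an unadjusted p under 0.05, and 0% of all probes, with 257 probes at an unadjusted p under 0.05. The difference, HC445 minus N2, was largest in size for gld-2, at 0.30 with an interval from -1.99 to 2.58.

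The responses of the generations were compared directly, as the parental minus the grandparental difference. None of the 6 genes passed, and none had an unadjusted p under 0.05 (limma), where 5.3% of the tested probes passed. For puf-8 this log2 difference was -0.00 with an interval from -0.22 to 0.22, and for puf-5 it was 0.16 with an interval from -0.15 to 0.48. For gld-1 it was -0.26 with an interval from -0.96 to 0.44. The intervals are wider than those of each generation, because 2 differences are set against each other.

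**Figure D3:**
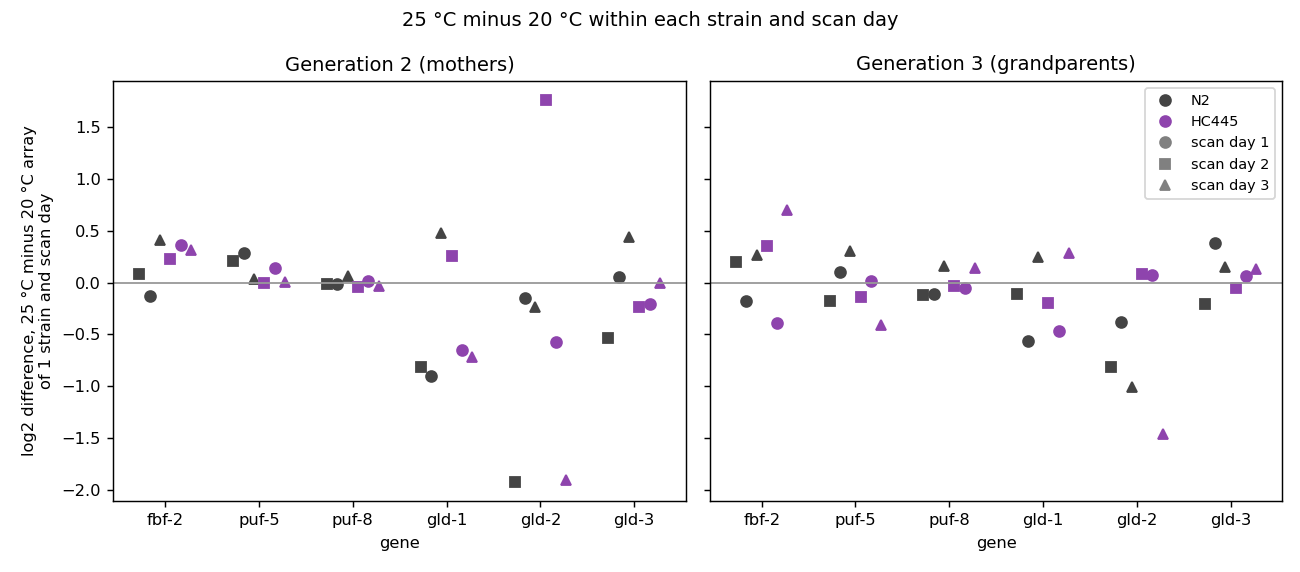
Log2 difference between the 25 °C and the 20 °C array of the same strain and scan day (vertical axis) for each gene (horizontal axis), in generation 2 on the left and generation 3 on the right, with 6 pairs per gene. The puf-8 pairs lie between -0.12 and 0.16, and the gld-2 pairs between -1.92 and 1.76.

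The signs of the differences were also counted over the pairs of arrays within a strain and scan day. Signs were not counted over all tested probes, so the counts of pairs and of scan days here only describe the 6 genes. In generation 2 the pairs were positive in 5 of 6 for fbf-2 and for puf-5, in 2 of 6 for puf-8, gld-1 and gld-3, and in 1 of 6 for gld-2. In generation 3 they were positive in 4 of 6 for fbf-2 and gld-3, in 3 of 6 for puf-5, and in 2 of 6 for puf-8, gld-1 and gld-2. No gene had all 6 pairs on one side in either generation. Averaged over the strains, the generation 2 differences had 1 sign on all 3 scan days for 4 of the 6 genes. For replicates 1, 2 and 3 these means were 0.15, 0.12 and 0.36 for fbf-2, and 0.10, 0.22 and 0.02 for puf-5. For gld-2 they were -0.08, -0.36 and -1.07, and for gld-1 they were all negative, as given above. The gld-2 mean of replicate 1 joined opposite signs, -1.92 in N2 and 1.76 in HC445. There the 25 °C array carried the spike-in note in N2, and the 20 °C array carried it in HC445. In generation 3 only gld-2 had 1 sign on all 3 days, with means of -0.37, -0.15 and -1.24, the last from a day on which both 25 °C arrays carried the note. The generation 2 means of replicate 3 have the same limit: both 25 °C arrays carried the note, and no 20 °C array of that replicate did. Only 2 pairs shared a slide. The N2 pair of generation 2, whose 25 °C array carried the note, gave 0.08 for fbf-2, 0.21 for puf-5, -0.01 for puf-8, -0.81 for gld-1, -1.92 for gld-2 and -0.53 for gld-3. The HC445 pair of generation 3 gave 0.35 for fbf-2, -0.14 for puf-5, -0.03 for puf-8, -0.20 for gld-1, 0.08 for gld-2 and -0.06 for gld-3.

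The strains were compared with all ancestors at 20 °C, over both generations. Of the 6 genes 0 passed, 0 had an unadjusted p under 0.05, and 0.112% of all probes passed (limma). The log2 difference of HC445 from N2 was 0.15 ± 0.15 (SE) for fbf-2, 0.09 ± 0.11 for puf-5, 0.09 ± 0.07 for puf-8, 0.18 ± 0.24 for gld-1, -0.05 ± 0.55 for gld-2 and 0.03 ± 0.16 for gld-3. Every one of these intervals included 0, and the interval of puf-8 ran from -0.07 to 0.24. Generation 3 was also set against generation 2 at 20 °C, 2 collections of embryos under 1 condition. Again 0 of 6 genes passed and 0 of 6 had an unadjusted p under 0.05, and 0% of all probes passed, with 366 at an unadjusted p under 0.05. The gld-2 difference there was 0.46 ± 0.55 (SE), about as large as its temperature differences.

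The order of the group means is therefore given as a description. For fbf-2 the means ran from -1.65 ± 0.04 (SD, n = 3) in N2 of generation 3 with 20 °C grandparents to -1.10 ± 0.16 (SD, n = 3) in HC445 after 25 °C mothers. For puf-5 they ran from 3.21 ± 0.02 (SD, n = 3) in N2 of generation 3 with 20 °C grandparents to 3.48 ± 0.21 in N2 after 25 °C mothers. For puf-8 they ran from 2.08 ± 0.10 in N2 with 25 °C grandparents to 2.25 ± 0.09 in HC445 after 20 °C mothers. For gld-1 the lowest mean was -1.68 ± 0.66 in N2 after 25 °C mothers and the highest -0.85 ± 0.32 in N2 with 20 °C grandparents. The same pair of groups held the extremes of gld-2, at -5.03 ± 0.30 and -3.85 ± 1.43. For gld-3 the means ran from -2.54 ± 0.14 in N2 after 25 °C mothers to -2.24 ± 0.24 in N2 with 25 °C grandparents. Not all neighbours in these orders were compared with each other, and no comparison above passed for any of the 6 genes. A test for any difference among the 8 groups, added after the values were seen, gave adjusted p-values between 0.683 and 1.00 for the 6 genes (limma F-test), where 8.34% of all probes passed.

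The genes differed in how much they varied between arrays of 1 group. The residual SD within groups was 0.104 for puf-8, 0.193 for puf-5, 0.257 for fbf-2, 0.269 for gld-3, 0.458 for gld-1 and 1.09 for gld-2, where the median of all tested probes was 0.370. Only 0.627% of all tested probes had a smaller residual SD than puf-8. Bright probes vary less: among the 3879 probes of the brightest of 3 equal classes, which holds puf-8 and puf-5, the median was 0.196, and 1.83% had a smaller SD than puf-8 and 48.2% a smaller SD than puf-5. gld-2 was at the other end, with a smaller SD in 91.9% of all tested probes.

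**Figure D4:**
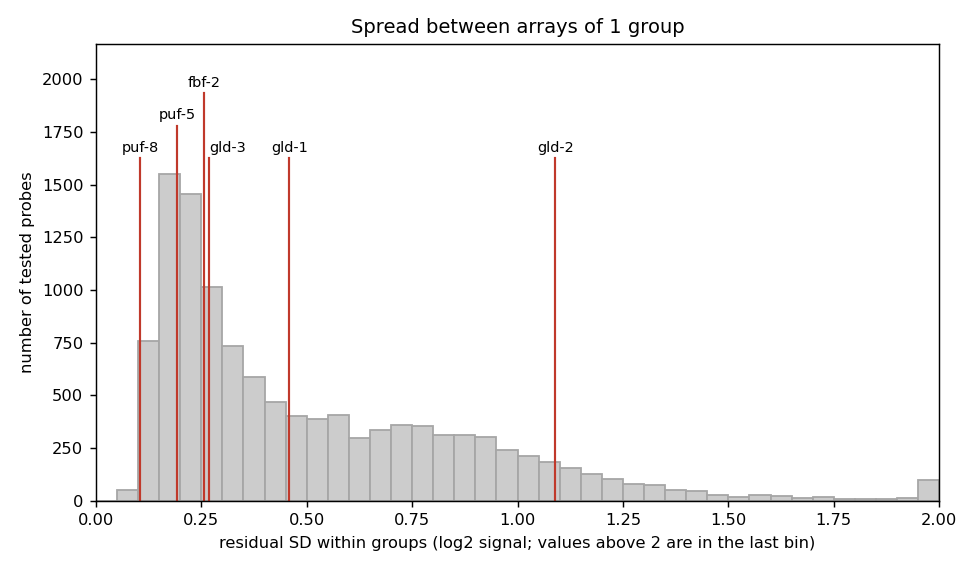
Number of tested probes (vertical axis) by residual SD of the log2 signal within groups (horizontal axis), with the 6 genes marked by lines. puf-8 lies near the lower end at 0.104 and gld-2 in the upper tail at 1.09.

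The wide spread of gld-2 was split by scan day. On scan day 1 all 8 arrays, 1 of each group, were low, with a lowest, median and highest signal of -5.64, -5.18 and -4.86. On scan day 2 the arrays fell into separate levels. There 6 arrays lay between -3.33 and -2.40, and the 2 arrays with the spike-in note, N2 after 25 °C mothers and HC445 after 20 °C mothers, were at -5.24 and -5.09. On scan day 3 the 4 arrays without the note, all of 20 °C groups, lay between -4.44 and -3.12. The 4 arrays with the note, all of 25 °C groups and on 1 slide, lay between -5.02 and -4.68. Thus on both days that had noted arrays, each noted array was below each array without the note, in 20 °C and 25 °C embryos alike on scan day 2.

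**Figure D5:**
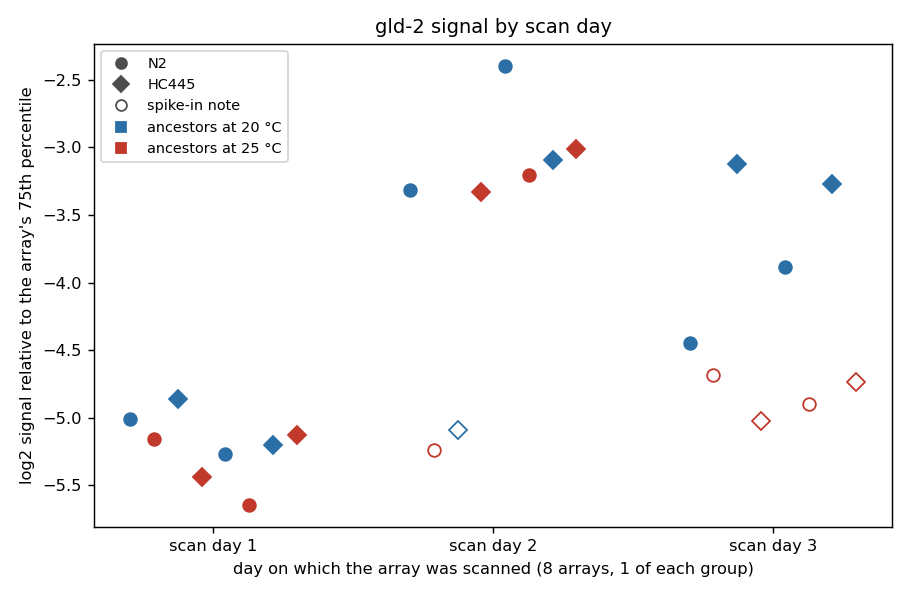
Normalised log2 signal of gld-2 (vertical axis) on each of 24 arrays by the day of scanning (horizontal axis), with open symbols for arrays that carry a spike-in note. All 8 arrays of scan day 1 and all 6 noted arrays lie at or below -4.68, and 9 arrays of scan days 2 and 3 lie above -4.

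Scan day and the note were then tested, after these values had been seen, with the group means in the fit. Scan days differed for 4 of 6 genes, where 46.1% of all tested probes differed (limma F-test, Benjamini-Hochberg). For gld-2 the log2 difference from scan day 1 was 1.63 ± 0.34 (SE) on day 2 and 0.96 ± 0.34 on day 3 (adjusted p = 0.00224). For gld-1 it was 0.60 ± 0.15 and 0.53 ± 0.15 (adjusted p = 0.00584). For puf-5 it was -0.25 ± 0.07 and 0.00 ± 0.07 (adjusted p = 0.00457), and the call was lost with quantile normalization and with the deposited series values (adjusted p = 0.686 with the latter). For fbf-2 it was 0.16 ± 0.10 and 0.33 ± 0.10 (adjusted p = 0.0389), a call kept in 17 of 33 alternatives, with an adjusted p of 0.440 without the noted arrays. puf-8 and gld-3 did not pass, with adjusted p of 0.0901 and 0.198.

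Over the scan days together, the spike-in note went with a lower signal of gld-2 alone among the 6 genes. With group means and scan days fitted, gld-2 was lower by a log2 difference of -1.58 ± 0.26 (SE) on noted arrays (limma adjusted p = 0.00141), where 1.34% of all probes passed and 0.834% had a larger absolute difference. The 5 other genes had log2 differences between -0.07 and 0.16 with adjusted p of at least 0.747. On scan day 2 alone, the 2 noted arrays were also the lowest for gld-1, at -1.77 and -1.15. The 6 arrays without the note lay between -0.96 and -0.43 there. On scan day 3 the 4 noted gld-1 arrays, between -1.16 and -0.62, lay inside the range of the 4 others, from -1.45 to -0.44. Without the array of HC445 after 20 °C mothers of replicate 1, the only noted 20 °C array, the gld-2 difference was -1.26 with an adjusted p of 0.0609 (limma). With scan day and note both in the fit, the gld-2 difference between mothers at 25 °C and 20 °C was 0.02 ± 0.25 (SE) in place of -0.50 ± 0.55, and that between grandparents was -0.06 ± 0.25 in place of -0.58 ± 0.55. The gld-1 difference between mothers was -0.37 ± 0.19 (SE) there, with an interval from -0.77 to 0.03. Of the 6 noted arrays 5 were of 25 °C groups, and on scan day 3 the note, the slide and 25 °C ancestors coincided on the same 4 arrays and cannot be told apart there.

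The probes most similar to the 6 genes over the 24 arrays were looked up by their Pearson correlation, as a description. The arrays share amplification, slide and scan day, and these go into every such value. The highest correlation with a probe outside the 8 genes was 0.973 for gld-2, with WBGene00021828, and 0.942 for puf-5, with WBGene00008380. For gld-2, 28 probes had a correlation above 0.9, and for puf-5 there were 7. The 4 other genes had none above 0.9, and their highest values lay between 0.750 and 0.842.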

How the data were processed

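The members, lists and tests were chosen with earlier results of these data known. Per the file headers, the authors' scanner software was Agilent Feature Extraction 9.5.3.1, and the array design was annotated on genome build ce2. The processed intensity has had local background and spatial trend removed by the authors' software, and other deposited columns used are flags of 0 or 1 for saturated, outlying or well above background spots. The deposited series table holds log2 values of the authors, and how they were normalised is not given in the sources.

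From the processed intensity, log2 minus the log2 75th percentile of each array was computed, and outlier spots (3 to 373 per array) were set to missing. Tests covered the 11637 probes that stood well above background on all 3 arrays of some group. Each gene had 1 probe, named by its WormBase ID. Of these IDs 0 matched the reference gene table, so gene names are those of the 8 chosen genes, other gene lists were not tested, and at most 2 other IDs are given. No sequences were used.

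limma 3.58.1 in R 4.3.3 fitted the 8 group means (lmFit, eBayes with trend), and p-values of 11 two-sided contrasts were adjusted by Benjamini-Hochberg over all tested probes, with a threshold of 0.05. Genes named are the 8 chosen and, where given, the probe most correlated with one of them. The fit was also run on simulated arrays with independent noise and no effect of scan day, slide or note. That run therefore does not cover such effects. Alternatives were normexp (offset 50, on median signals) with quantile normalization, quantile normalization, no filter, a filter on all 24 arrays, slide as a fixed or random block, a replicate block, array weights, the deposited values, and leaving out noted arrays or each array. Leaving out the slide with the 4 replicate 3 arrays of 25 °C groups, and a term for the spike-in note, were added after the data were seen. Figures were drawn with matplotlib 3.10.9.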

Additional observations from a re-analysis of the deposited data

How the results depend on the processing

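None of the 66 combinations of 6 genes and 11 comparisons passed the threshold under any of the 36 alternatives. The lowest adjusted p among these 2376 values was 0.106, for gld-1 and maternal temperature with slide as a random block (limma). The sign differed from the reported one in 197 of these values (8.29%), none of them past the threshold. The replicate number was the scan day. Between arrays of different groups, 66 of 84 pairs with the same number deviated together with a correlation above 0.1 (median 0.227, against -0.116 for other numbers), and all 24 arrays were on average nearest to their own number. With the replicate block the count stayed at 0 of 6 in each comparison. The number of genes that differed between scan days was 4 of 6 and ran from 3 to 5 without 1 array. It was 2, gld-1 and gld-2, with quantile normalization and 2 with the deposited series values. The number that differed with the spike-in note was 1, and ran from 0 to 1 without 1 array. The tests of scan day and note were not run with slide as a fixed block, and the note test held scan day, which is the replicate number, throughout. Slide as a fixed block left 3 residual degrees of freedom. With 3 arrays per group, the intervals of maternal and grandparental temperature were widest for gld-2 among the 6 genes.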
